A study of Arabidopsis thaliana with 24 samples.

Results

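The chloroplast genome of Arabidopsis thaliana carries genes for photosynthesis and for the expression of those genes. Its members were found here as all rows whose locus identifier starts with ATCG, and there were 75 of them among 21245 genes. All 75 had values in shoots (of 19495 genes), and 52 of them also had values in roots (of 20336 genes). They were grouped by product into photosystem II (13 genes), photosystem I (5), photosystem I assembly factors (2), the cytochrome b6f complex (5), the ATP synthase (6), the NDH complex (11 loci), the large subunit of Rubisco (1), the RNA polymerase (4), the small (12) and large (9) ribosomal subunits and other proteins (7).

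The seedlings were of the accession Col-0 and grew on agar medium. They were moved to medium with 2 mM titanium dioxide nanopowder (Ti) or to control medium without it (Ctrl), and roots (R) and shoots (S) were collected 3 days (3D) and 10 days (10D) later. Each of the 8 groups, from Ctrl-R-3D to Ti-S-10D, had 3 libraries, each from a pool of 160 seedlings, so a value averages over whole organs of many plants and names no cell type. The deposited values are log2 CPM (reads of a gene scaled to a common library total), and the 3 columns of every group were identical in every row. Each group therefore had 1 value per gene, no spread between replicates could be computed, and no difference between Ti and Ctrl was tested.

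Log2 differences are Ti minus Ctrl, within 1 organ and 1 day. Differences beyond 0.2, the limit that the study used, which is 14.9% higher on the linear scale, are counted as higher or lower and are to be read beside the share of all genes past the same limit, which is given with the first count of each comparison. The lowest values of each column lay on a ladder of even steps that gave the CPM of 1 read in a group, between 0.0138 and 0.0163 CPM, so that 1 CPM stood for 61.2 to 72.5 reads in a whole group. Read numbers are CPM over this step. The lowest value, which stood for no reads, was not subtracted, so each read number is too high by under 1 read. Counting intervals at 95% (exact conditional binomial, Clopper-Pearson) were computed from these reads, and they cover counting error only, not the variation between seedling pools. They were computed for the members only, so counts of intervals above or below 0 have no share of all genes beside them. The study's own test used the 3 libraries of each group. None of the genes that the study called at 3 days, in either organ, was encoded in the chloroplast. The study's calls at 10 days are not set beside the members here.

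Chloroplast genes are transcribed by 2 kinds of enzyme. A multisubunit polymerase of bacterial type has its core encoded in the chloroplast and needs nucleus-encoded sigma factors, and single-subunit polymerases of phage type are encoded in the nucleus. Most genes lie in clusters that are transcribed together and then cut and processed, and the photosynthetic complexes join chloroplast-encoded with nucleus-encoded subunits. Roots hold non-green plastids with the same genome, which transcribe it at low levels. Plastid transcripts mostly lack stable poly(A) tails, and mRNA libraries usually select such tails, so the values here rank the same gene between groups and are not amounts of total plastid RNA.

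Coding sequences are printed for 3 of the shortest members, since members measured in shoots only were shorter by median and these 3 are named in the results. They are from RefSeq TAIR10.1, the chloroplast genome, 5′ to 3′, with start and stop codons in capitals. petN, a small cytochrome b6f subunit, was measured in shoots only, rpl32 was the only member lower with Ti in roots at 10 days, and rpl36 was of similar length and higher there.
petN: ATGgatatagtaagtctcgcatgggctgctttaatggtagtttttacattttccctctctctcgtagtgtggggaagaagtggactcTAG
rpl32: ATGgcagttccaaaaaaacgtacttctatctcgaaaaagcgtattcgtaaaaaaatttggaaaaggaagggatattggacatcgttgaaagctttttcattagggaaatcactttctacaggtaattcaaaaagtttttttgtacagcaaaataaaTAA
rpl36: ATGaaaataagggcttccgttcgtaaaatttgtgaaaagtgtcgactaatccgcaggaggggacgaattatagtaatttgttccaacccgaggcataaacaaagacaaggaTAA
The coding sequences of petN, rpl36 and rpl32 have 90, 114 and 159 bases with a GC content of 43.3%, 39.5% and 30.8%. The 23 members measured in shoots only had a median coding length of 222 bases, against 730.5 bases for the 52 measured in both organs, and 14 of the 23 but 5 of the 52 were under 300 bases. The 23 also had lower values in shoots, with a median of 0.793 CPM in Ctrl-S-10D against 1.86 for the 52, and they included longer genes such as ndhB (1539 bases). psbE, psbI, psbJ, psbK, psbL, psbM, psbT, psbH, petG, psaC, psaI and psaJ, all small subunits, were among those with no value in roots.

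In roots at 10 days, transcripts of the chloroplast genome were higher with Ti in every product group. The summed value of the 52 members was 25.1 CPM in Ctrl-R-3D, 33.5 in Ti-R-3D, 54.1 in Ctrl-R-10D against 145 in Ti-R-10D, and the log2 difference of the sums at 10 days was 1.43. Of the members, 49 were higher and 1 was lower at 10 days, where 23.7% of all genes were higher and 22.3% were lower. The median difference of the members was 1.51, beside 0.02 for all genes, and 44 of them were higher by over 1, where 1.46% of all genes were. The members were low in abundance, and among the 6057 genes in the same range of mean CPM, 31.6% were higher by over 0.2 and 3.35% by over 1. Counting intervals lay above 0 for 48 members and spanned 0 for rpl32, ndhF and both copies of rps7.

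A filter on low CPM bears on these counts. Nearly all genes in the root data reached 0.428 CPM in their highest group, which is taken as the level of the filter, and 48 of the 52 members had their highest value in Ti-R-10D. A member that passed through this group alone had to be higher there, so the counts describe the members measured and are no evidence about the rest. The members that passed so were psbZ, ndhG, ndhH, rpl20, rpl36, rps2, rps4, rps18 and rps19. Of the 43 members that reached the level in some other group, 40 were higher and 1 was lower at 10 days, with a median of 1.43. In Ctrl-R-10D itself, 40 members were already at this level. Of these, 39 were higher and 1 was lower at 10 days, with a median of 1.48 and 35 above 1.

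**Figure D1:**
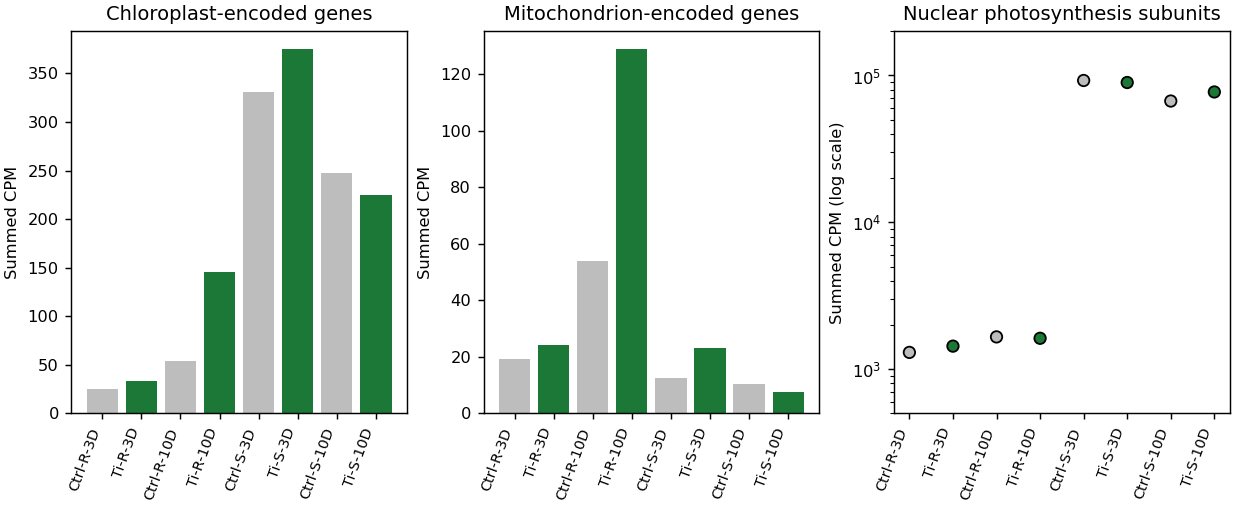
Summed CPM of the chloroplast-encoded genes (left, 52 in roots and 75 in shoots), of the mitochondrion-encoded genes (middle) and of nuclear genes for subunits of the photosynthetic complexes (right, log scale) in the 8 groups, 1 value per group without error bars, grey for Ctrl and green for Ti. In roots at 10 days the chloroplast sum is 54.1 CPM in Ctrl and 145 in Ti, the mitochondrial sum is 54.0 and 129, and the nuclear sum is 1660 and 1624.

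Other values moved with this result. The 23 mitochondrion-encoded genes with values in roots were also higher at 10 days (22 higher and 1 lower, median 1.22), and their sum was 54.0 CPM in Ctrl-R-10D against 129 in Ti-R-10D. They passed the same filter, and whether some of them did so through Ti-R-10D alone was not checked. The markers of green shoot tissue did not show a shift of this size. Of 7 such genes (LHCB1.1, LHCB2.1, LHCB3, LHCA1, RBCS1A, CA1 and GLDP1), 3 were higher and 1 was lower, and their sum was 589 CPM in Ctrl-R-10D against 607 in Ti-R-10D. All 7 root markers were in the root data, and 1 was higher (CASP1, 0.27) and 1 was lower (NRT2.1, a nitrate transporter, at 21.5 CPM in Ctrl and 4.16 in Ti), while PYK10, which made up most of their sum, was at 11224 and 10864 CPM. The part of organelle number, of tail selection in the libraries and of the cells sampled in this result was not tested. In bulk tissue, fewer cells of a type and less RNA per cell cannot be told apart.

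Photosystem I passes electrons to ferredoxin, and psaA and psaB encode the pair of large proteins that hold its reaction centre. psaA was at 0.594 CPM in Ctrl-R-3D, 1.45 in Ti-R-3D, 3.92 in Ctrl-R-10D against 13.4 in Ti-R-10D, so that Ti-R-10D was far above the other 3 groups. Its difference was 1.28 at 3 days (counting interval 0.73 to 1.86) and 1.77 at 10 days (1.57 to 1.98). psaB was at 0.963, 1.29, 4.05 and 12.3 CPM in the same order, a difference of 1.61 at 10 days (1.40 to 1.81). The assembly factors ycf3 and ycf4, which help to build photosystem I, differed by 1.46 and 1.94 at 10 days.

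Photosystem II, the complex that splits water, was higher by less. Its 5 measured genes had a median of 1.08 at 10 days. psbA encodes the D1 protein, which is damaged by light and replaced often. psbA was at 4.02 CPM in Ctrl-R-10D against 5.93 in Ti-R-10D, a difference of 0.56 (0.33 to 0.79), and at 3 days it was at 1.44 and 1.26 CPM. psbB, for the core antenna protein CP47, was at 2.39 and 6.02 CPM at 10 days and differed by 1.33. psbD (the D2 protein) and psbC (the antenna protein CP43) differed by 1.14 and 1.08. Their coding sequences overlap by 53 bases on the same strand, so reads could be shared between them. The smallest measured gene of the complex, psbZ, was at 0.260 and 0.521 CPM at 10 days. It reached the level of the filter in Ti-R-10D alone and had to be higher there.

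The cytochrome b6f complex links the photosystems. petA, which encodes cytochrome f, was at 0.225 CPM in Ctrl-R-3D, 0.421 in Ti-R-3D, 0.660 in Ctrl-R-10D against 3.65 in Ti-R-10D. Its difference at 10 days was 2.47 (2.00 to 2.98). petB (cytochrome b6) and petD (subunit IV) differed by 1.72 and 1.74 at 10 days, and at 3 days petB was at 0.333 CPM in Ctrl-R-3D against 0.251 in Ti-R-3D.

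The ATP synthase genes lie in separate clusters and had like differences at 10 days. atpA and atpB, for the catalytic head, differed by 1.50 and 1.40, and atpF, atpH and atpI, for the part in the membrane, by 1.76, 1.26 and 1.40. At 3 days they were less alike. atpB was at 1.44 CPM in Ctrl-R-3D against 1.03 in Ti-R-3D, a difference of -0.49 (-0.97 to -0.02), the only counting interval below 0 among the members at that time. atpH, for the subunit of the membrane ring, was at 0.124 and 0.379 CPM at 3 days, a difference of 1.61 (0.46 to 3.04). A nuclear sequence with 95.5% identity covers the whole of atpI, and one with 96.4% covers rps2, so reads of these members could come from either place. These were 2 of 73 members searched for copies with at least 95% identity over at least 80% of their length.

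The NDH complex takes electrons from ferredoxin back to plastoquinone, and ndhG, ndhF and ndhH had, with ycf2, the lowest values per kilobase of coding sequence in Ctrl-R-10D. This rank between genes describes the measured values and not amounts of plastid RNA. ndhH was at 0.297, 0.231, 0.173 and 1.15 CPM in Ctrl-R-3D, Ti-R-3D, Ctrl-R-10D and Ti-R-10D. Its difference of 2.74 at 10 days (1.85 to 3.83) was among the largest of the members, and it rested on 11.3 reads in the whole of the control group. Both ndhH and ndhG reached the level of the filter in Ti-R-10D alone, so they had to be higher there. ndhG differed by 2.27, ndhD by 1.69, ndhA by 1.58 and ndhF by 0.50 at 10 days. ndhF was at 0.242 CPM in Ctrl-R-3D against 0.726 in Ti-R-3D, and at 0.385 and 0.543 CPM at 10 days, so its difference was larger at 3 days (1.59, 0.75 to 2.53). For ndhG at 3 days no fold change is given, since both groups were under 3 reads.

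rbcL, the gene of the large subunit of the carbon-fixing enzyme Rubisco, was at 0.888 CPM in Ctrl-R-3D, 1.39 in Ti-R-3D, 1.50 in Ctrl-R-10D against 3.16 in Ti-R-10D. Its difference was 0.65 at 3 days (0.16 to 1.15) and 1.08 at 10 days (0.72 to 1.44).

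The genes of the RNA polymerase core had unequal differences. rpoB encodes the beta subunit, rpoC1 and rpoC2 the parts of beta prime, and rpoA the alpha subunit. At 10 days rpoB was at 3.14 CPM in Ctrl and 5.05 in Ti, a difference of 0.68 (0.42 to 0.94). rpoC1 differed by 0.43 (0.09 to 0.78) and rpoC2 by 1.43 (1.14 to 1.73), and their intervals did not overlap although the genes follow rpoB in 1 cluster. rpoA, which lies in a cluster with ribosomal protein genes, was at 0.907 and 4.44 CPM, a difference of 2.29 (1.89 to 2.73).

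**Figure D2:**
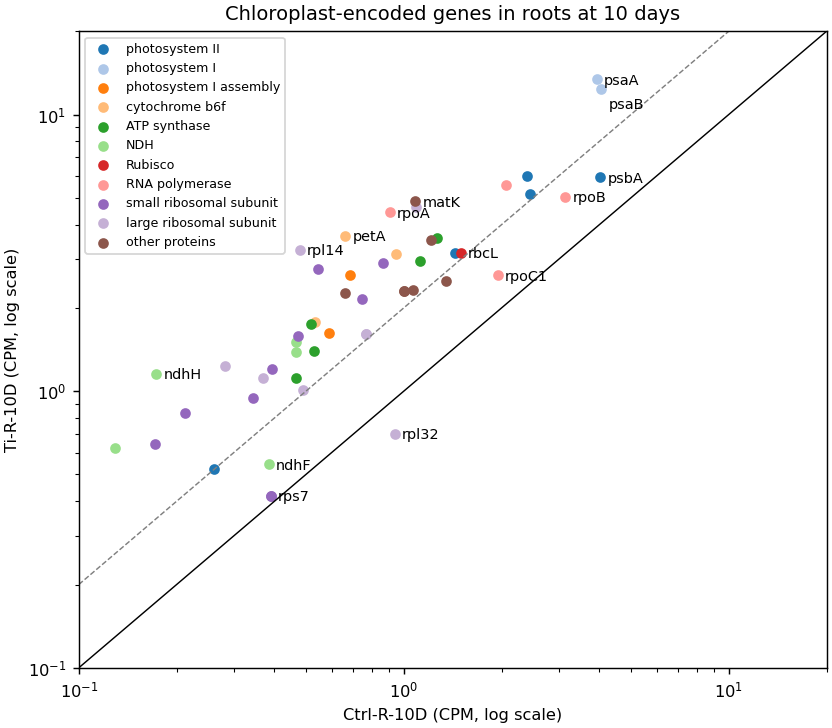
Each point is 1 of the 52 chloroplast-encoded genes in roots at 10 days, with its CPM in Ctrl-R-10D on the x axis with that in Ti-R-10D on the y axis (both log scales), coloured by product; the solid line marks equal values and the dashed line a log2 difference of 1. rpl32 lies under the solid line, rpoB, rpoC1, psbA, ndhF, ycf1 and rps7 lie between the lines, and 44 points lie above the dashed line.

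Ribosomal protein genes held both ends of the range. rpl14 of the large subunit was at 0.537, 0.998, 0.479 and 3.24 CPM in Ctrl-R-3D, Ti-R-3D, Ctrl-R-10D and Ti-R-10D, and its difference of 2.76 at 10 days (2.22 to 3.37) was the largest of the 52. rpl20 differed by 2.13 and rpl16 by 2.08. At the other end, rpl32, printed above, was at 0.714, 0.562, 0.937 and 0.702 CPM in the same order, with differences of -0.35 at 3 days (-1.03 to 0.32) and -0.42 at 10 days (-0.99 to 0.18), both intervals spanning 0. rpl36 was at 0.370 CPM in Ctrl-R-10D against 1.11 in Ti-R-10D, a difference of 1.59 (0.92 to 2.34), although its coding sequence is shorter than that of rpl32. Like rpl20, it reached the level of the filter in Ti-R-10D alone and had to be higher there. rps7 was at 0.390 and 0.418 CPM, and its difference of 0.10 had an interval from -0.69 to 1.00. rps7, rpl2 and ycf2 each have copies in the inverted repeat, the duplicated stretch of the chloroplast genome, and the values of the copies were identical in every group, as were those of ndhB and rps12 in shoots. Each such pair is 1 measurement counted as 2 members.

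The other proteins were higher at 10 days in all 7 rows. matK encodes a splicing factor for chloroplast introns, and it was at 0.300, 0.520, 1.09 and 4.85 CPM in Ctrl-R-3D, Ti-R-3D, Ctrl-R-10D and Ti-R-10D, a difference of 2.16 at 10 days (1.78 to 2.55). accD, a subunit of the enzyme that starts fatty acid synthesis, differed by 1.54, cemA, of the envelope, by 1.78, and clpP1, a protease subunit, by 1.12. ycf1 and ycf2, the longest members, have been placed in the import machinery of the inner envelope and differed by 0.89 and 1.20. Across the 52 members the difference at 10 days had a correlation of r = -0.12 with log2 coding length and 0.10 with log2 mean CPM; the members share libraries and transcripts, and these values are descriptions.

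**Figure D3:**
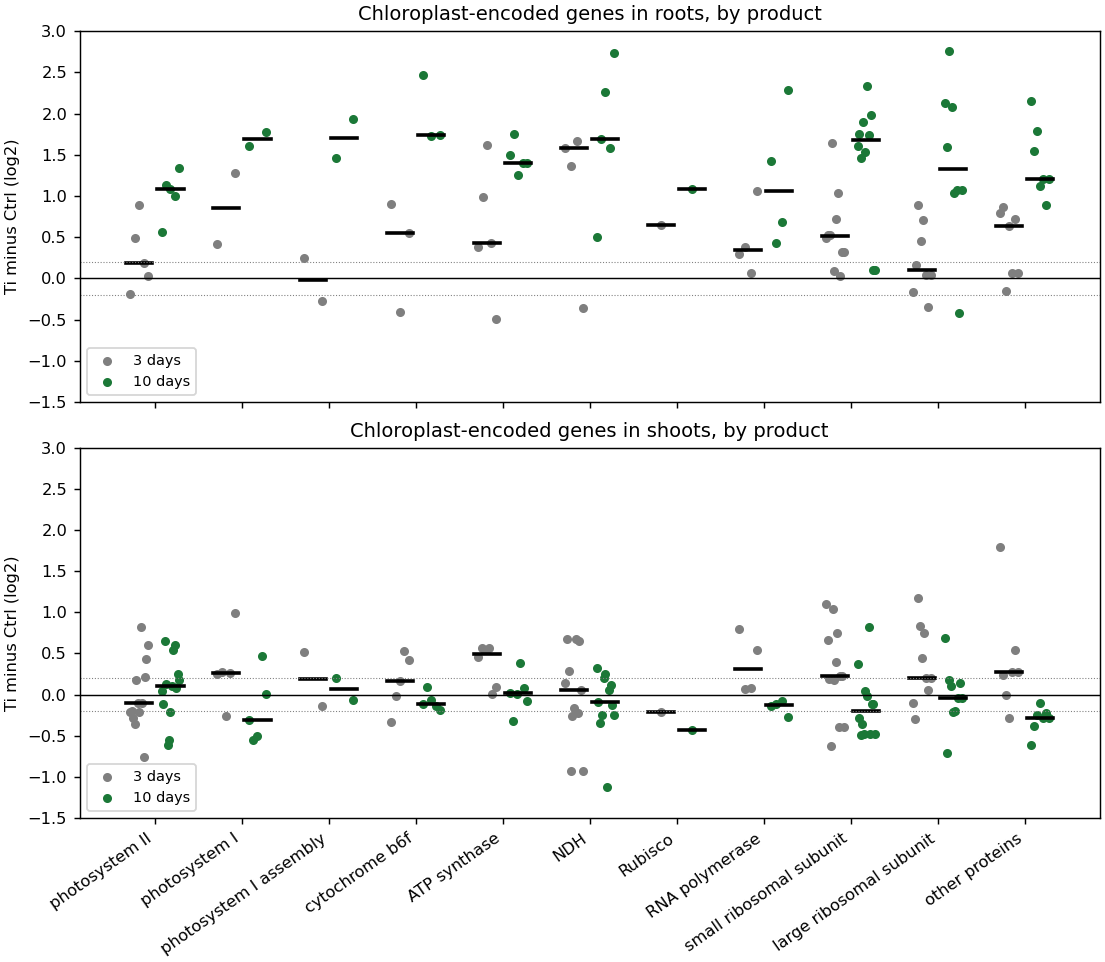
Log2 difference of Ti minus Ctrl for each chloroplast-encoded gene in roots (top) and shoots (bottom) at 3 days (grey) and 10 days (green), by product, with a black bar at the median of each product group and dotted lines at 0.2 and -0.2; ndhG in roots at 3 days is left out as a point since it was under 3 reads. In roots at 10 days the medians lie between 1.06 for the RNA polymerase and 1.74 for cytochrome b6f, and in shoots at 10 days between -0.43 for Rubisco and 0.10 for photosystem II.

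At 3 days the difference in roots was smaller and less even. There 34 members were higher, ndhG included, and 5 were lower, where 8.51% of all genes were higher and 8.38% were lower, and the median of the members was 0.44. Counting alone was wide at this time, since a member had a median of 25.8 reads in the whole of Ctrl-R-3D, and 36 of the 52 counting intervals spanned 0. Intervals lay above 0 for 15 members, among them psaA, psbC, atpF, atpH, rpoA, rpl14, rps3, accD, rbcL, ycf1 and 3 NDH genes. Mitochondrion-encoded genes had a median of 0.24 (14 of 23 higher and 4 lower). Of the 7 shoot markers, 4 were higher in these roots, 0 were lower and 3 were within 0.2 of 0. CA1, a carbonic anhydrase of leaf chloroplasts, had the largest difference, at 0.390 CPM in Ctrl-R-3D against 2.04 in Ti-R-3D. The sum of the 7 markers was 479.5 and 547 CPM, a log2 difference of 0.19. Their part in the difference at 3 days was not tested.

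The values at the separate days show how the controls stood. In Ctrl roots, 42 of the 52 members were higher at 10 days than at 3 days and 5 were lower, with a median of 1.29, where 30.4% of all genes were higher and 30.6% were lower. In Ti roots 49 were higher and 3 were lower, with a median of 2.28, where 33.9% of all genes were higher and 35.1% were lower. The 52 include the members that reached the level of the filter in Ti-R-10D alone, which had to be higher in that group. As a percentage of the shoot value of the same member, day and treatment, the median root value was 12.4% in Ctrl and 13.0% in Ti at 3 days, and 37.6% in Ctrl and 130% in Ti at 10 days. The organs were normalized separately and the same members are included, so these percentages are descriptions. Per kilobase of coding sequence, the highest member in Ctrl-R-10D was rpl32 at 5.90 CPM per kilobase, followed by psbA at 3.78, and in Ti-R-10D it was rpl16 at 11.3, while psbA was at 5.59 and rpl32 at 4.42. Such ranks set different genes side by side, so they describe the measured values and are not amounts of plastid RNA.

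In shoots the chloroplast-encoded values were higher as a sum and the differences were smaller in both directions. The 75 members summed to 331 CPM in Ctrl-S-3D, 375 in Ti-S-3D, 248 in Ctrl-S-10D against 224 in Ti-S-10D, and at most 0.0366% of a group's summed CPM in any group came from them. At 3 days 39 were higher and 17 lower, where 13.1% of all genes were higher and 12% were lower, with a median of 0.20. At 10 days 13 were higher and 27 lower, where 24.2% of all genes were higher and 21.7% were lower, with a median of -0.10. Counting intervals lay above 0 for 30 members and below 0 for 7 at 3 days, and above 0 for 6 and below 0 for 10 at 10 days. Mitochondrion-encoded genes with values in shoots were higher at 3 days (13 of 15, median 0.89) and lower at 10 days (13 of 15, median -0.48), and their part was not tested. Whether some of them passed the filter through a single group was not checked.

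The largest difference in shoots was that of matK. It was at 4.23 CPM in Ctrl-S-3D against 14.7 in Ti-S-3D, a difference of 1.80 (1.60 to 2.00), and at 1.76 and 1.15 CPM at 10 days, a difference of -0.62 (-1.04 to -0.21). Ti-S-3D was thus far above the other 3 groups of shoots. However, matK was not among the genes that the study's own test called in shoots at 3 days. Members for the ribosome followed at 3 days. rpl36 was at 0.712 and 1.60 CPM (1.17, 0.65 to 1.69) and rps2 at 0.597 and 1.28 (1.11, 0.55 to 1.70). rpoC2 differed by 0.79 at 3 days (0.58 to 1.01), while rpoB and rpoC1 of the same cluster differed by 0.08 and 0.06. psaC, for the iron-sulphur protein of photosystem I, was at 0.366 and 0.727 CPM at 3 days. Nearly all genes in the shoot data reached 0.369 CPM in their highest group, which is taken as the level of the filter. psaC and psbT reached it in Ti-S-3D alone and had to be higher there, and the counts in shoots at 3 days include them.

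Members lower at 3 days in shoots included ndhB of the NDH complex, psbE of cytochrome b559 and rps18 of the small ribosomal subunit. ndhB was at 2.01 CPM in Ctrl-S-3D against 1.05 in Ti-S-3D, a difference of -0.93 (-1.37 to -0.49), counted at both of its copies. psbE was at 1.24 and 0.732 CPM at 3 days (-0.76) and at 0.793 and 1.20 at 10 days (0.60), so it was lower with Ti at the first time and higher at the second. psbA was at 40.6, 35.2, 31.5 and 32.4 CPM in Ctrl-S-3D, Ti-S-3D, Ctrl-S-10D and Ti-S-10D, with differences of -0.21 and 0.04. rbcL was at 23.3, 20.03, 18.3 and 13.6 CPM in the same order, with differences of -0.22 (-0.32 to -0.11) and -0.43 (-0.55 to -0.31).

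At 10 days in shoots the large reaction centre and antenna genes psaA, psaB, psbD and psbC were lower with Ti. psaA was at 21.1, 25.6, 13.5 and 9.21 CPM in Ctrl-S-3D, Ti-S-3D, Ctrl-S-10D and Ti-S-10D, a difference of 0.28 at 3 days and -0.55 at 10 days (-0.69 to -0.40). psaB differed by -0.30 (-0.45 to -0.15). psbD was at 9.87 CPM in Ctrl-S-10D against 6.44 in Ti-S-10D (-0.62, -0.79 to -0.45), and psbC at 15.6 and 10.7 (-0.55, -0.68 to -0.41). Small subunits of the photosystems lay on both sides of 0. psaJ differed by 0.47, psbI by 0.65 and psbE by 0.60, each with a counting interval above 0, while psaI differed by -0.50 and psbZ by -0.21 with intervals spanning 0. Of the ATP synthase genes, atpF differed by -0.32 (-0.62 to -0.03) and atpI by 0.39 (0.00 to 0.77) at 10 days. Other genes of this enzyme and of cytochrome b6f were within 0.2 of 0, with atpA at 5.42 and 5.51 CPM, atpB at 15.1 and 14.3, atpE at 2.91 and 3.07, petA at 2.20 and 2.33 and petB at 1.61 and 1.46 at 10 days. rpoB was at 22.8 and 21.6 CPM (-0.08, -0.18 to 0.02). ndhG differed by -1.12 at 10 days, from 0.420 to 0.194 CPM, on 13.9 reads in the whole of Ti-S-10D.

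Neighbouring genes that are transcribed together were also compared by cluster. In the cluster that runs from rpl23 to rpoA, which encodes ribosomal proteins and the alpha subunit of the polymerase, all 10 measured genes were higher by over 1 in roots at 10 days (median 1.86, from 1.04 for rpl22 to 2.76 for rpl14). In shoots 9 of the 10 were higher at 3 days (median 0.64), and 1 was higher and 3 were lower at 10 days (median -0.03). The cluster of atpI, atpH, atpF and atpA with rps2 had medians of 1.50 in roots at 10 days, 0.56 in shoots at 3 days (5 of 5 higher) and 0.02 in shoots at 10 days. The psbB cluster, with petB and petD, had medians of 1.72, 0.44 and 0.08 in the same order. The cluster of psaA, psaB and rps14 and that of psbD, psbC and psbZ had medians of 1.75 and 1.08 in roots at 10 days and -0.30 and -0.55 in shoots at 10 days. In roots rpl36, rps19, rps2 and psbZ reached the level of the filter in Ti-R-10D alone and had to be higher there. The same held for psbT of the psbB cluster in shoots, through Ti-S-3D. The neighbours within a cluster share transcripts, so they are not separate measurements of a treatment.

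**Figure D4:**
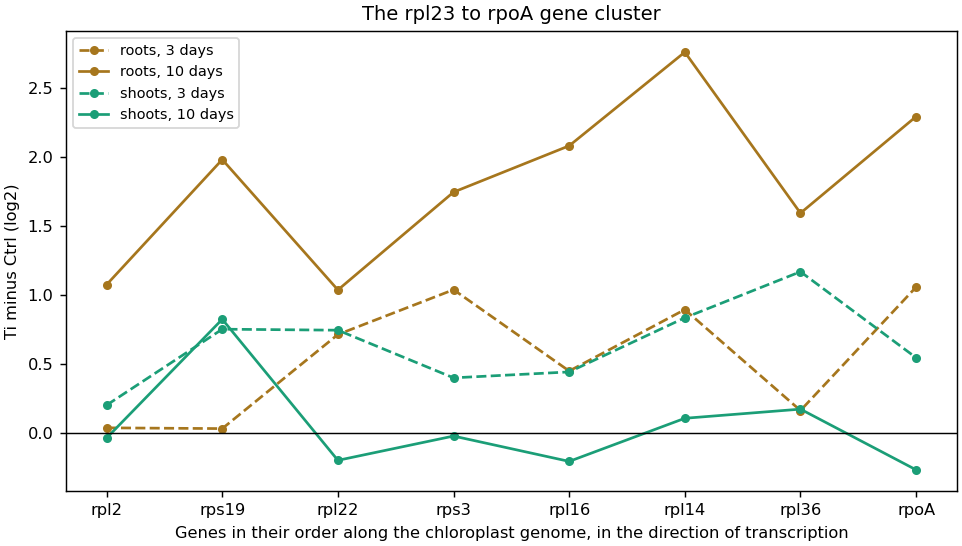
Log2 difference of Ti minus Ctrl (y axis) for 8 of the 10 measured genes of the rpl23 to rpoA cluster in their order of transcription (x axis), in roots (brown) and shoots (green) at 3 days (dashed) and 10 days (solid). In roots at 10 days all 8 lie above 1, and in shoots at 10 days rps19 is at 0.82 and the other 7 lie between -0.27 and 0.17. In roots, rpl36 and rps19 reached the level of the filter in Ti-R-10D alone and had to be higher there.

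The nucleus-encoded partners of the same complexes were nearer to 0 in roots at 10 days. Of 35 nuclear genes for subunits of the photosystems, cytochrome b6f, the ATP synthase, NDH and Rubisco, 5 were higher and 8 were lower, beside 23.7% and 22.3% of all genes. Their sum was 1660 CPM in Ctrl-R-10D against 1624 in Ti-R-10D. Those of photosystem II had a median of -0.09 (0 higher and 3 lower of 10), those of photosystem I 0.08 (2 and 3 of 12) and those of the ATP synthase -0.14 (0 and 1 of 3). The largest differences above 0 were those of RBCS2B and RBCS3B, for small subunits of Rubisco, and NDHL of the NDH complex. RBCS2B was at 0.127 and 0.430 CPM, on few reads, RBCS3B at 1.45 and 2.76 and NDHL at 1.22 and 2.88. PSAG of photosystem I differed by 0.49, and NDHN of the NDH complex had the lowest difference of the 35, -0.67. RBCS1A, another small subunit gene, differed by 0.12. Of 25 nuclear genes for plastid ribosomal proteins, 0 were higher and 8 were lower, with a median of -0.15, beside a median of 1.60 for the 18 chloroplast-encoded ones. The 18 include rpl20, rpl36, rps2, rps4, rps18 and rps19. These reached the level of the filter in Ti-R-10D alone and had to be higher there.

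Nuclear genes of the transcription machinery were not higher in roots at 10 days either. Of the 6 sigma factors, SIG4 and SIG6 were lower (-0.43 and -0.28) and 0 were higher. The phage-type polymerases RPOTP and RPOTMP had differences of -0.29 and -0.45, and 6 of 12 polymerase-associated proteins were lower and 0 higher. In shoots at 3 days RPOTP and RPOTMP differed by 0.38 and 0.35.

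At 3 days in roots 15 of the 35 nuclear photosynthesis genes were higher and 0 were lower, beside 8.51% and 8.38% of all genes, led by RBCS2B (1.80), RBCS1B (1.40) and RBCS3B (1.21), and PSAL and PSAG of photosystem I differed by 0.47 and 0.44. In shoots at 3 days 0 of 36 were beyond 0.2 in either direction. In shoots at 10 days 20 of the 36 were higher and 1 was lower (RBCS1B, -0.39), beside 24.2% and 21.7% of all genes, with a median of 0.22. The 12 genes of photosystem I had a median of 0.29 there, with PSAE2 at 440.4 and 627 CPM, while psaA and psaB were lower. Of the nuclear genes for plastid ribosomal proteins 10 of 25 were higher and 0 were lower in shoots at 10 days. Of the root markers with values in shoots, CASP1, IRT1 and NRT2.1 differed by -0.27, -1.17 and -2.63 at 10 days, from 0.156, 1.21 and 0.920 CPM in Ctrl-S-10D, and PYK10 was at 423 and 426 CPM.

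**Figure D5:**
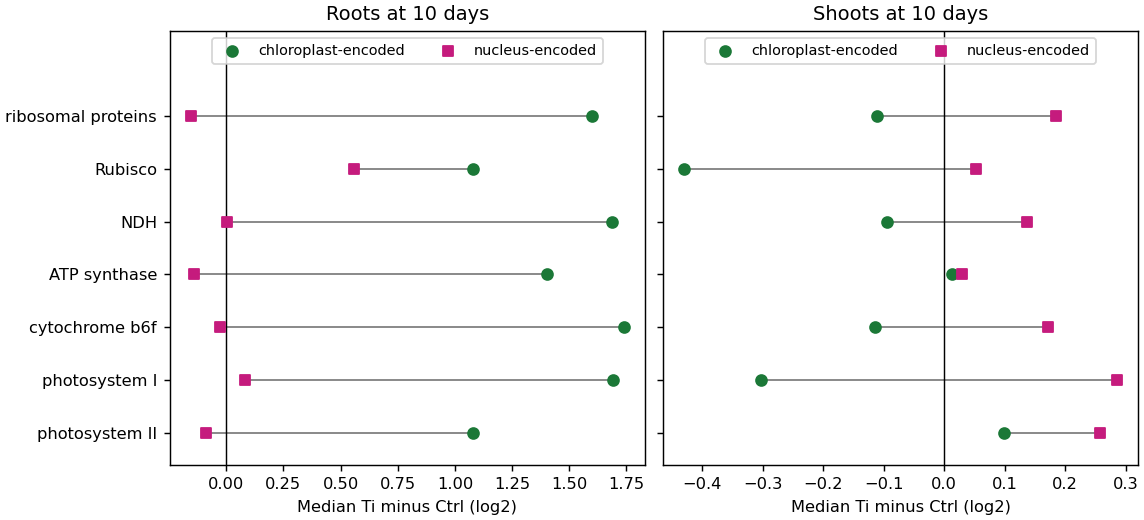
Median log2 difference of Ti minus Ctrl at 10 days (x axis) of the chloroplast-encoded genes (green circles) and of the nucleus-encoded genes (magenta squares) of the same complex (y axis), in roots (left) and shoots (right, with its own x axis). In roots the circles lie between 1.08 and 1.74 and the squares between -0.15 and 0.56. The root circles of photosystem II, NDH and the ribosomal proteins include members that reached the level of the filter in Ti-R-10D alone. Those members had to be higher there. In shoots photosystem I is at -0.30 and 0.29.

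The organs are set side by side for the 52 members with values in both. At 10 days 21 were higher in roots but lower in shoots, 6 were higher in both and 0 showed the reverse, beside 3.96%, 7.8% and 3.51% of the 18586 genes with values in both organs. These counts include the members that reached the level of the filter in Ti-R-10D alone, which had to be higher in that group. At 3 days 21 were higher in both, 6 were higher in roots but lower in shoots, and 1 showed the reverse, beside 2.02%, 1.17% and 1.38% of these genes. None of these differences between organs was tested.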

How the data were processed

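The authors prepared mRNA libraries (TruSeq, paired-end reads of 150 bases on an Illumina sequencer), checked the reads with FastQC 0.11.9, trimmed them with cutadapt and Trim Galore 0.6.6, quantified Araport11 transcripts by pseudo-alignment in kallisto 0.44.0, which divides reads between matching transcripts without using strand unless told to, and fitted each organ with edgeR after a filter on low CPM. They deposited log2 CPM, normalized within each organ, with 1 value per group in its 3 columns (0 rows differed), so the planned tests over replicates could not be run.

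Differences, medians and sums over 2 to the log2 value were computed here in Python 3.11.15 (pandas 2.3.3, scipy 1.17.1). Reads per group came from steps among the lowest values, of which 75.6% to 97.0% lay within 0.1 of a whole step, and no fold change is given where both groups were under 3 reads. Groups of genes by product, nuclear lists, markers and members were chosen with earlier results of these data known. Named were, for each product, the largest and smallest difference among members with a mean of at least 1 CPM, members beyond 1, and core subunits; others named were chosen after their values were seen. The files give locus identifiers without names: 26 members had names in the study's tables, 3 in reference notes, and 46 were named by locus nomenclature, whose order matched the RefSeq chloroplast genome at 72 of 72 steps. RefSeq TAIR10.1 is not the authors' build, so no positions are given. Copies were searched with blastn 2.17.0+, and 4 pairs of coding sequences overlap: psbC with psbD, atpB with atpE, rpl22 with rps3, and ndhF with ycf1 on the other strand. Alternatives were a limit of 0.5, a pseudocount of 1 CPM, filters at 10 and 1 CPM, other scalings, quantile normalization and summed copies. The scripts were tested on simulated data. Some single members are not reported here by name and are counted only in sums, counts and medians.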

Additional observations from a re-analysis of the deposited data

Results flagged for a closer look

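For 7 members Ti and Ctrl differed in opposite directions in roots and shoots by over 0.5, on 1 value per group and organ. The share of all genes with opposite directions past 0.5 was not computed. Whether 7 members are more than such a share was therefore not tested. The difference between the organs was not tested. At 10 days matK differed by 2.16 in roots and -0.62 in shoots, psbD by 1.14 and -0.62, psbC by 1.08 and -0.55, and psaA by 1.77 and -0.55. At the same time rpl20 differed by 2.13 in roots and -0.71 in shoots, and ndhG by 2.27 and -1.12, both on few reads. The counting interval of rpl20 in shoots spanned 0 (-1.43 to 0.01). In roots both reached the level of the filter in Ti-R-10D alone, so their direction there was fixed by their being measured. At 3 days rps18, of the small ribosomal subunit, differed by 1.64 in roots, from 0.0944 to 0.295 CPM, and by -0.62 in shoots, from 0.640 to 0.417 CPM. The root value rested on 6.41 reads in the whole of Ctrl-R-3D, and the counting interval in shoots spanned 0 (-1.36 to 0.14).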

How the results depend on the processing

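No paired analysis was possible because the 3 columns of a group are identical, and leaving out a replicate was not run for the same reason. Of 96 values under alternatives, 72 stayed within 1.5 times the count or 0.2 of the median, and 0 medians changed sign against a called value. Scaling by genes outside the chloroplast, scaling to a median of 0, quantile normalization and summed copies moved none of the values past these bounds. With a limit of 0.5, roots had 0 lower members at 3 and at 10 days, and shoots had 22 higher and 4 lower at 3 days and 5 higher and 6 lower at 10 days. With a pseudocount of 1 CPM, which shrinks differences of members near 1 CPM, roots had 21 higher and 1 lower with a median of 0.11 at 3 days, and 0 lower with a median of 0.75 at 10 days. With it, shoots had 8 lower at 3 days, and 6 higher and 12 lower at 10 days. A filter at a mean of 10 CPM left 0 members in roots, and in shoots it left 10 at 3 days (4 higher, 2 lower) and 7 at 10 days (0 higher, 4 lower). A filter at a mean of 1 CPM, chosen after seeing the data, left 8 members in roots at 3 days (5 higher, 1 lower), 34 at 10 days (0 lower), 55 in shoots at 3 days (10 lower) and 46 at 10 days (3 higher, 17 lower). Members at the filter's level in Ctrl-R-10D, also chosen after seeing the data, kept all root values within the bounds. The median half-width of the counting intervals was 0.84 in roots at 3 days, 0.51 in roots at 10 days, 0.38 in shoots at 3 days and 0.45 in shoots at 10 days.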
